A study of Homo sapiens with 12 samples.

Results

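Matrix metalloproteinases and their inhibitors were followed through RNA-seq libraries of pancreatic ductal adenocarcinoma cells with and without knockdown of GOT1, the cytosolic aspartate transaminase. The 10 genes were taken by symbol from the 58721 genes of the deposited tables and comprised 6 enzymes (MMP1, MMP7, MMP14, MMP15, MMP24 and MMP28) and 4 inhibitors (TIMP1, TIMP2, TIMP3 and RECK). The set was chosen by measured values, the lower MMP1 of MIA PaCa-2 with dox and the higher MMP28 of Pa-Tu-8902 with dox, so these values are given as a description, and no p is attached to any dox contrast within a line or to MMP1 and MMP28 in any contrast. Both established human lines carried a doxycycline (dox)-inducible short hairpin RNA against GOT1. The 12 libraries fell into 4 groups of 3, namely untreated Pa-Tu-8902, Pa-Tu-8902 given dox for 5 days, untreated MIA PaCa-2 and MIA PaCa-2 given dox for 5 days. Every dox library therefore carried the hairpin, and an effect of dox itself and an effect of GOT1 loss cannot be told apart in these libraries. The labels do not say whether replicates were separate cultures, so tests measure only the spread between these samples.

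Matrix metalloproteinases are zinc-dependent endopeptidases that cleave collagens, laminins, growth factor precursors and cell surface proteins. They are made as inactive precursors and are opened by other proteases, among them plasmin and furin. Tissue inhibitors of metalloproteinases (TIMPs) bind the active site one to one, and the membrane-anchored protein RECK restrains several of the enzymes at the cell surface. In pancreatic cancer the enzymes come from tumor cells and from the fibroblasts around them, while these libraries hold cultured tumor cells alone. Transcript levels do not report activity, which also depends on activation of the precursor and on inhibitor protein, and tetracyclines such as dox are themselves known to inhibit metalloproteinase activity.

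The feature that defines the enzymes is a stretch in which histidines hold the catalytic zinc. Its first 24 coding bases (8 codons, 5′ to 3′) are shown for each enzyme, since they separate the 6 enzymes from the 4 inhibitors. Capitals mark the codons of the first histidine and the catalytic glutamate, of the second histidine and of the conserved glycine that follows.
MMP1: CATGAActcggcCATtctcttGGA
MMP7: CATGAActtggcCATtctttgGGT
MMP28: CACGAGatcggtCACacgcttGGC
MMP14: CACGAGctgggcCATgccctgGGG
MMP15: CATGAGctgggcCACgcgctgGGG
MMP24: CATGAGctgggcCACgcgctgGGA
Each of the 6 enzymes held 1 such site and it lay in exon 5 in all of them, while 0 of the 4 inhibitors held it. On GRCh38 the sites are at chr11:102795558-102795581 (MMP1, minus strand), chr11:102523352-102523375 (MMP7, minus), chr17:35770176-35770199 (MMP28, minus), chr14:22843283-22843306 (MMP14, plus), chr16:58040563-58040586 (MMP15, plus) and chr20:35263817-35263840 (MMP24, plus), all within coding sequence. Of the 24 positions, 13 were identical in all 6 enzymes. The search required the capitalised codons, so most of their bases were fixed in advance. They count towards this number and the pairwise ones. The membrane-type pair MMP15 and MMP24 shared 23 bases, MMP1 and MMP7 shared 20, and MMP7 and MMP28 shared the fewest, 13.

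Total counts ran from 26226516 to 43406131 per library, so that 3 counts, taken as the floor of detection, corresponded to between 0.0691 and 0.114 CPM (a gene's counts scaled to a common library total). Within-gene values below are CPM normalised by the trimmed mean of M-values (TMM) over all 12 libraries, and levels of different genes are compared only as TPM, the same scaling of transcripts after correction for length. GOT1 itself was lower in every dox library, at 4.98 ± 0.655 against 125 ± 9.35 normalised CPM in Pa-Tu-8902 and at 2.58 ± 0.445 against 71.1 ± 4.37 in MIA PaCa-2 (SD, n = 3 each). All 6 epithelial markers examined (KRT8, KRT18, KRT19, KRT7, EPCAM and CDH1) exceeded 1 TPM in Pa-Tu-8902, and 3 of 6 did so in MIA PaCa-2, where KRT7, EPCAM and CDH1 reached at most 1.26 TPM. Of 6 fibroblast markers 1 exceeded 1 TPM in each line, COL1A1 in Pa-Tu-8902 and COL1A2 in MIA PaCa-2, while COL3A1, DCN and LUM stayed at or below 0.14 TPM. The lines are assigned here by the deposited sample titles. A source table that accompanies the study lists, for at least 1 gene, counts under a Pa-Tu-8902 heading that the deposited files hold under MIA PaCa-2 titles.

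Among the members, the principal enzyme and the balance between enzymes and inhibitors differed between the lines. In untreated Pa-Tu-8902 the order by TPM was TIMP2 (151 ± 4.03), TIMP1 (119 ± 9.92), MMP14 (47.2 ± 1.29) and MMP15 (8.93 ± 0.426), followed by MMP28 and MMP1, both under 1 TPM and overlapping between libraries (SD, n = 3). In untreated MIA PaCa-2 TIMP1 led with 997 to 1019 TPM, then TIMP2 (191 ± 28.9), MMP1 (87.7 ± 5.56) and MMP15 (6.48 ± 0.905). There MMP14 (0.98 ± 0.131 TPM) and MMP24 (0.843 ± 0.129 TPM) overlapped and were not separable. MMP24 and TIMP3 overlapped at the low end in untreated Pa-Tu-8902, and MMP28 overlapped MMP7 in untreated MIA PaCa-2.

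Summed over the 6 enzymes, untreated Pa-Tu-8902 libraries held 56.5 to 58.8 TPM, of which MMP14 made up 81.3 to 82.8%. Untreated MIA PaCa-2 libraries held 89 to 102 TPM, of which MMP1 made up 90.7 to 91.6%. With dox the sum stood at 73.3 to 77 TPM in Pa-Tu-8902 and at 32.2 to 33.2 TPM in MIA PaCa-2, so the libraries of the lines lay in the opposite order to the untreated ones. The 4 inhibitors summed to 257 to 280 TPM in untreated and 363 to 407 TPM in dox Pa-Tu-8902, and to 1180 to 1220 TPM in untreated and 884 to 972 TPM in dox MIA PaCa-2. The ratio of inhibitor to enzyme transcripts moved little in Pa-Tu-8902, from 4.54 to 4.92 without dox to between 4.95 and 5.37 with it. In MIA PaCa-2 it went from between 12.1 and 13.2 to between 26.8 and 30.2. These sums contain MMP1 and MMP28, whose responses chose the set, and were not tested. They leave out metalloproteinases outside the set. In MIA PaCa-2 these included MMP11 (9.82 TPM without and 9.04 with dox), MMP17 (3.24 and 8.22), MMP23B (3.57 and 3.39) and MMP10 (2.48 and 1.3). MMP11 averaged 1.47 and 3.71 TPM in Pa-Tu-8902. The shares and ratios therefore hold for the members alone.

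**Figure D1:**
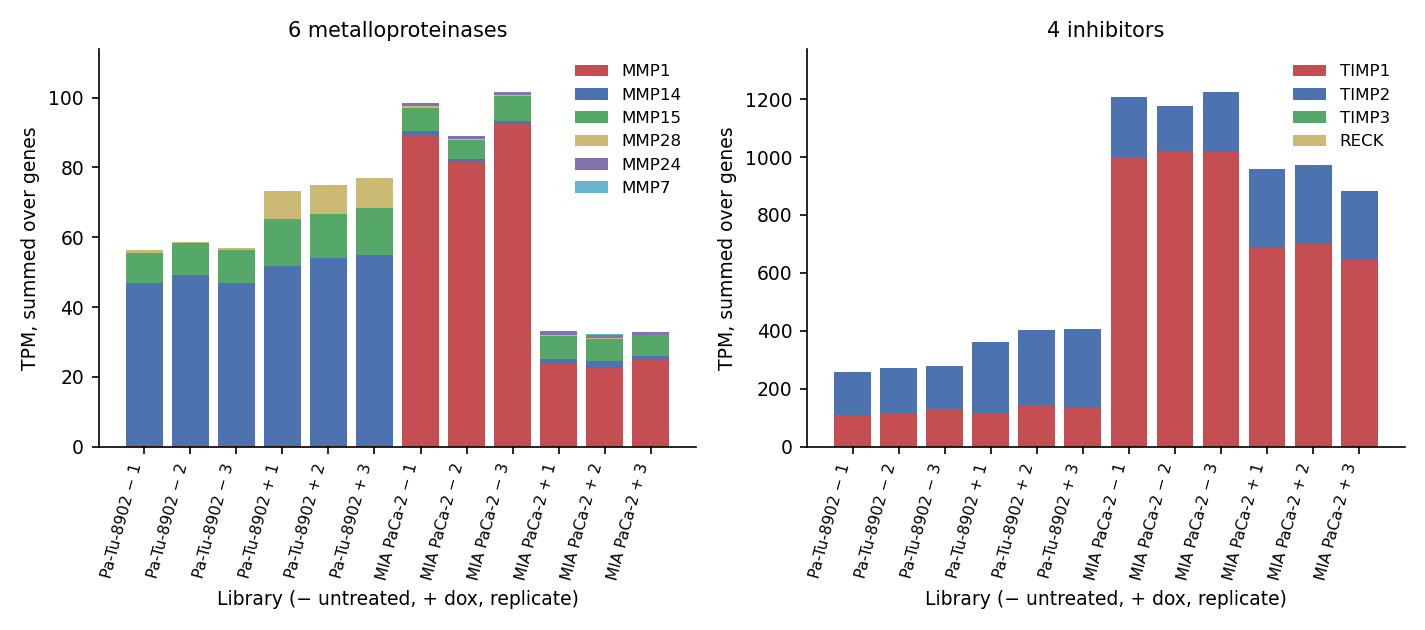
Stacked TPM of the 6 enzymes (left) and the 4 inhibitors (right) in each of the 12 libraries, with − for untreated, + for dox and the replicate number; each color is a gene. MMP14 fills most of each Pa-Tu-8902 enzyme bar and MMP1 most of each MIA PaCa-2 enzyme bar, whose total stands at 89 to 102 TPM without dox and 32.2 to 33.2 TPM with it.

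Within each line dox was compared with no treatment by edgeR's quasi-likelihood test across all genes that reached 10 counts in 3 or more of the 6 libraries. A gene counted as called at a Benjamini-Hochberg adjusted p below 0.01 together with a fold change of at least 1.5. In Pa-Tu-8902, 7 of the 10 members could be tested and 3 were called (MMP28, TIMP2 and TIMP3, all higher), where 16.3% of all tested genes were called. In MIA PaCa-2, 6 could be tested and 2 were called (MMP1 and TIMP1, both lower), where 12% of all tested genes were called. For Pa-Tu-8902 the median log2 fold change of the tested members was 0.45, against 0.0014 over all tested genes, and for MIA PaCa-2 it was 0.03, against -0.0089. These counts and medians include MMP28 and MMP1, whose responses chose the set. They are descriptions and cannot be read as an excess over all tested genes. Not tested for low counts were MMP7 and RECK in both lines, MMP24 in Pa-Tu-8902, and MMP28 and TIMP3 in MIA PaCa-2. TIMP3 in Pa-Tu-8902 passed the filter through its dox libraries alone, so it had to differ once it was tested, and without any 1 of them it was not tested. In bulk RNA a change in the share of cells that express a gene and a change in the RNA per cell cannot be told apart.

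**Figure D2:**
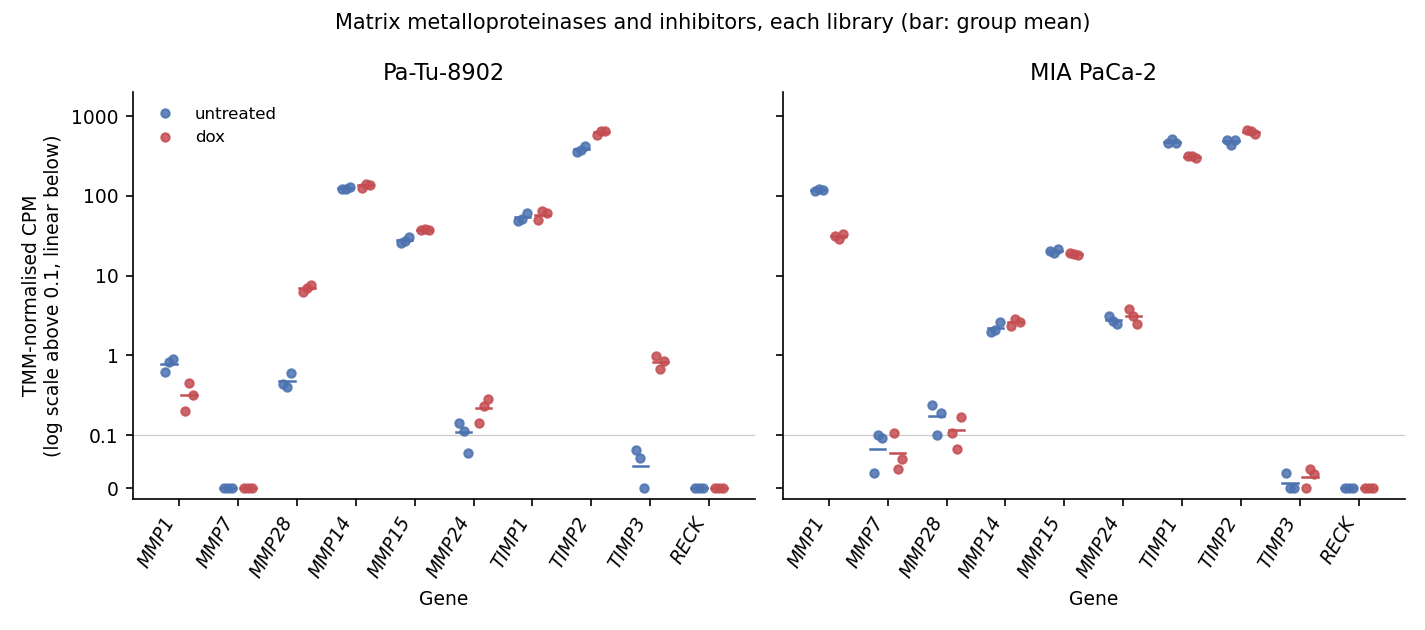
TMM-normalised CPM of the 10 genes in each library of Pa-Tu-8902 (left) and MIA PaCa-2 (right), untreated in blue and dox in red, with a bar at each group mean of 3; the axis is logarithmic above 0.1 and linear below. MMP1 and TIMP1 in MIA PaCa-2, and MMP28, TIMP2 and TIMP3 in Pa-Tu-8902, separate without overlap. So do MMP1 and MMP15 in Pa-Tu-8902 and TIMP2 in MIA PaCa-2, which were not called, and RECK is at 0 throughout.

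Among the secreted enzymes, MMP1 is interstitial collagenase, which makes the first cut in fibrillar collagens (chromosome 11, 102789401 to 102798160, minus strand). In untreated MIA PaCa-2 it measured 116, 122 and 119 normalised CPM, from 3687 to 3854 counts per library. With dox it measured 31, 29.2 and 33.4 normalised CPM, from 789 to 1191 counts. All 3 dox libraries lay below all 3 untreated ones, and the fit gave a log2 fold change of -1.93 ± 0.07 (SE), or 3.81-fold lower. In Pa-Tu-8902 MMP1 was a rare transcript, with 17, 29 and 27 counts in the untreated and 7, 19 and 10 counts in the dox libraries. Expressed as normalised CPM these were 0.614, 0.824 and 0.911 against 0.2, 0.447 and 0.316, again without overlap. The log2 fold change there was -1.25 ± 0.35 (SE) and did not pass the thresholds. Without dox replicate 2, the highest of the dox libraries, it was -1.58 and did pass. MMP1 thus lay lower with dox in both lines, at very different depths of counting. WTAPP1, on the opposite strand, shares 223 exonic bases with MMP1. It had 9 to 15 counts without dox and 12 to 30 with it in Pa-Tu-8902, and up to 4 in MIA PaCa-2. Whether reads of one were assigned to the other was not tested, so the low Pa-Tu-8902 counts of MMP1 are uncertain.

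MMP7, or matrilysin, is a small enzyme without the C-terminal hemopexin domain that is known from ductal epithelium and is encoded in the same gene cluster as MMP1 (chromosome 11, 102520508 to 102530750). No count of it was found in any of the 6 Pa-Tu-8902 libraries. MIA PaCa-2 held 1, 3 and 3 counts without dox and 3, 1 and 2 with it. Every library was thus at or under the floor of 3 counts, and no difference was detectable at this depth.

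MMP28, or epilysin, is a furin-activated secreted enzyme known from keratinocytes and healing epithelium (chromosome 17, 35756249 to 35795707, minus strand). In untreated Pa-Tu-8902 it measured 0.433, 0.398 and 0.607 normalised CPM, which is 12, 14 and 18 counts. The dox libraries held 6.3, 7.07 and 7.53 normalised CPM, or 220, 301 and 238 counts. The groups were far apart, and the log2 fold change was 3.86 ± 0.18 (SE), or 14.5-fold higher. On the TPM scale MMP28 went from 0.687 ± 0.266 to 8.32 ± 0.279 (SD, n = 3) and so stood just below MMP15 among the enzymes of dox-treated Pa-Tu-8902. MIA PaCa-2 had 8, 3 and 6 counts without dox and 3, 2 and 6 with it. The summed counts there, 17 against 11, gave a depth-corrected ratio of untreated to dox of 1.48 with a 95% exact interval of 0.654 to 3.5, which covers counting error only and includes no difference.

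Transcript-level estimates showed how the MMP28 signal of dox-treated Pa-Tu-8902 was made up. Of 7 annotated transcripts, MMP28-203 (protein coding) held 3.29 to 4.97 TPM, which was 40.2 to 57.5% of the gene. MMP28-201, also protein coding, held 1.52 to 2.17 TPM, and MMP28-207, annotated as a target of nonsense-mediated decay, held 1.17 to 1.28 TPM. The retained-intron form MMP28-206 varied from 0 to 1.3 TPM between the 3 dox libraries, so its share cannot be given with any precision. In the untreated libraries no transcript exceeded 0.75 TPM. The 3 main transcripts were each higher in all dox libraries than in any untreated library.

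**Figure D3:**
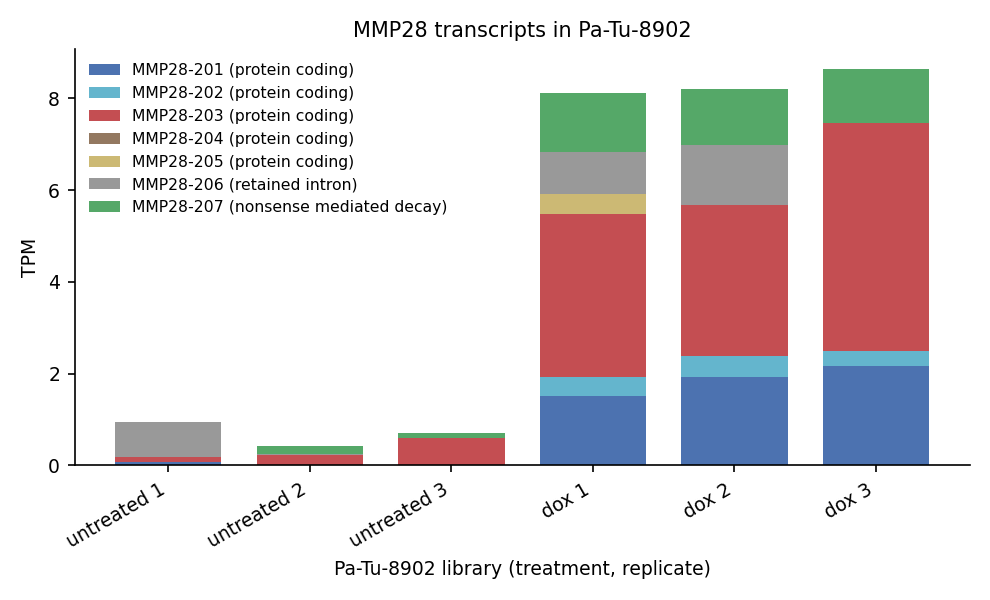
TPM of the 7 annotated MMP28 transcripts, stacked, in the 3 untreated and 3 dox libraries of Pa-Tu-8902. MMP28-203 (red) is the largest part of each dox bar at 3.29 to 4.97 TPM, and MMP28-201 (dark blue) and MMP28-207 (green) are present in each of them.

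Membrane-type enzymes sit at the cell surface, and the best known is MMP14 (MT1-MMP), a pericellular collagenase that also activates the MMP2 precursor (chromosome 14, 22836560 to 22849041, plus strand). In Pa-Tu-8902 it measured 121, 123 and 130 normalised CPM without dox and 127, 140 and 138 with it. These groups overlapped, and the log2 fold change of 0.12 ± 0.05 (SE) did not pass the thresholds. MIA PaCa-2 held 1.98, 2.06 and 2.61 normalised CPM without dox and 2.31, 2.88 and 2.6 with it, a log2 fold change of 0.23 ± 0.18 (SE) with overlapping groups. The MMP14 share of the summed enzyme TPM stood at 70.4 to 71.4% in dox Pa-Tu-8902, below its untreated share. The protein-coding form MMP14-201 made up 96.1 to 99.3% of the gene in that line.

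MMP15 (MT2-MMP) is a close relative of MMP14 (chromosome 16, 58025754 to 58046901, plus strand). Of the enzymes that could be tested between the untreated lines, which leaves out MMP7, it alone differed by less than 1.5-fold. In Pa-Tu-8902 it measured 25.7, 27.1 and 30.5 normalised CPM without dox and 37, 38.8 and 37.5 with it. The groups did not overlap, but the difference of 0.45 ± 0.07 (SE, log2) was under the 1.5-fold limit. MIA PaCa-2 held 20.1, 19.1 and 21.8 normalised CPM without dox and 19.4, 18.9 and 18.1 with it, a difference of -0.11 ± 0.08 (SE, log2) with overlapping groups.

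MMP24 (MT5-MMP) is best known from the nervous system, where it processes cadherins (chromosome 20, 35226690 to 35276998, plus strand). MIA PaCa-2 held 3.09, 2.72 and 2.46 normalised CPM without dox and 3.77, 3.14 and 2.49 with it, groups that overlapped at a log2 fold change of 0.18 ± 0.19 (SE). Pa-Tu-8902 libraries held 4, 4 and 2 counts without dox and 5, 10 and 9 with it. The depth-corrected ratio of those sums was 2.04 with a 95% exact interval of 0.939 to 4.77, so a change was not shown at this depth. The annotation places MMP24OS on the opposite strand with 806 shared exonic bases and 505 to 1290 counts per library. The library kit was directional, but the study's methods give default RSEM parameters, under which strand is not used, so reads in the shared bases cannot be told apart by strand and the low MMP24 counts are uncertain.

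TIMP1, a secreted inhibitor that also signals through CD63 (chromosome X, 47582408 to 47586789, plus strand), was the most abundant member in MIA PaCa-2. There it measured 453, 514 and 460 normalised CPM without dox and 317, 317 and 299 with it. All dox libraries lay below all untreated ones, and the log2 fold change was -0.61 ± 0.07 (SE), or 1.52-fold lower, which is close to the 1.5-fold limit. Without untreated replicate 2, the highest library, the value was -0.56 and fell short of the limit. Pa-Tu-8902 held 48.8, 52 and 61.2 normalised CPM without dox and 49.8, 63.7 and 61.1 with it, overlapping groups with a log2 fold change of 0.11 ± 0.1 (SE). TIMP1 lies within SYN1, a gene on the opposite strand that shares no exonic base with it. SYN1 counts in MIA PaCa-2 were 78 to 129 without dox and 34 to 47 with it, against at least 8572 counts of TIMP1, and their part in the TIMP1 value was not tested.

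TIMP2 inhibits most metalloproteinases and, bound to MMP14, also serves as the receptor on which the MMP2 precursor is activated (chromosome 17, 78852977 to 78925387, minus strand). In Pa-Tu-8902 it measured 357, 375 and 416 normalised CPM without dox and 576, 654 and 657 with it. The groups were apart by more than their spread, with a log2 fold change of 0.72 ± 0.07 (SE), or 1.65-fold higher. MIA PaCa-2 held 507, 439 and 497 normalised CPM without dox and 664, 655 and 596 with it. Here too the groups did not overlap, but the log2 fold change of 0.41 ± 0.07 (SE) was under the 1.5-fold limit. With dox the TIMP2 level averaged 260 ± 10.9 TPM in Pa-Tu-8902, and 260 ± 18.1 TPM for MIA PaCa-2 (SD, n = 3 each). The division between its main transcripts was not stable, since TIMP2-201 took 39.9 to 89.8% of the gene among the untreated Pa-Tu-8902 replicates, so no transcript of TIMP2 is compared here. MMP2, the gelatinase that MMP14 and TIMP2 jointly activate, was looked up after these values were seen, and it had 0 to 2 counts in untreated Pa-Tu-8902 and 0 counts in the other 9 libraries.

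TIMP3 is the inhibitor that stays bound to the extracellular matrix and that also blocks ADAM17 (chromosome 22, 32801705 to 32863041, plus strand). Pa-Tu-8902 libraries held 2, 2 and 0 counts without dox and 34, 29 and 27 counts with it. The depth-corrected ratio of the sums, 90 against 4, was 19.1 with a 95% exact interval of 7.2 to 71.6 for counting error. This is a description, because TIMP3 passed the filter through its dox libraries alone. Even with dox its level was 0.263 ± 0.0503 TPM (SD, n = 3), overlapping that of MMP1. MIA PaCa-2 libraries held 0 or 1 count each in both groups. TIMP3 lies within SYN3 on the opposite strand, with no exonic base in common, and SYN3 moved alongside it, from 4 to 7 counts without dox to between 35 and 40 counts with dox in Pa-Tu-8902 and 0 counts in MIA PaCa-2. Whether reads of one were assigned to the other was not tested.

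RECK, which anchors to the membrane and restrains MMP14 and MMP2 activity there, was listed with 0 counts in all 12 libraries (chromosome 9, 36036913 to 36124455, plus strand). Summed over the 3 libraries of a group, 0 counts allow a level of up to 0.0274 to 0.034 CPM.

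**Figure D4:**
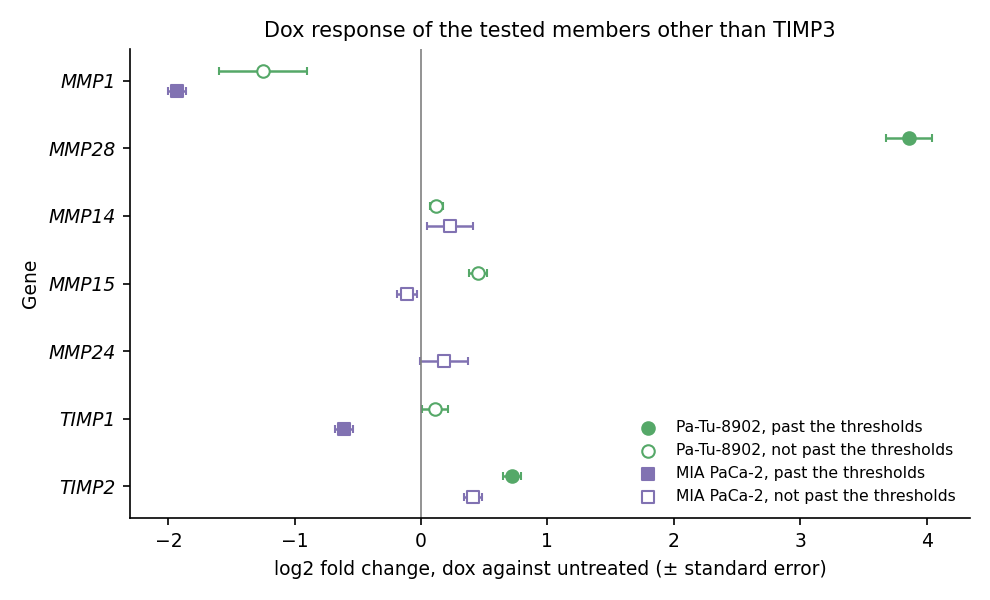
Log2 fold change of dox against untreated with its standard error for each tested member in Pa-Tu-8902 (green circles) and MIA PaCa-2 (purple squares); filled symbols passed both thresholds, and TIMP3, given as a count ratio, is left out. MMP28 at 3.86 in Pa-Tu-8902 and MMP1 at -1.93 in MIA PaCa-2 are the values that chose the set, MMP1 in Pa-Tu-8902 lies at -1.25, and the members other than these lie between -0.61 and 0.72.

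Baseline levels were compared between the 3 untreated libraries of each line. Of the 10 members 7 could be tested and 5 were called, where 58.1% of all tested genes were called, so most genes of any kind differed between these lines. Pa-Tu-8902 had the higher MMP14 and MMP28 and the lower MMP1, MMP24 and TIMP1. MMP14 was 55.5-fold higher in Pa-Tu-8902, with a log2 difference of 5.79 ± 0.1 (SE) and an edgeR adjusted p of 2.76e-14. MMP1 showed the reverse, 152-fold lower in Pa-Tu-8902 at -7.25 ± 0.11 (SE, log2), which rested on 17 to 29 counts per library there. TIMP1 was 8.92-fold lower in Pa-Tu-8902 (log2 difference -3.16 ± 0.09 SE, edgeR adjusted p 1.57e-12). MMP24 stood at 0.108 ± 0.0387 normalised CPM in untreated Pa-Tu-8902, from 2 to 4 counts per library, and at 2.76 ± 0.319 in untreated MIA PaCa-2 (SD, n = 3). It passed the filter through the MIA PaCa-2 libraries alone, so it had to differ once tested, and its call is a description.

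MMP28 in turn passed that filter only through its Pa-Tu-8902 libraries, with 44 counts in all against 17 in MIA PaCa-2. The depth-corrected ratio was 2.65 with a 95% exact interval of 1.48 to 4.95. That interval covers counting error only and leaves out the spread between libraries. It is a description and no test, because MMP28 chose the set. The MMP28 call did not hold when untreated MIA PaCa-2 replicate 1, 2 or 3 was left out, at log2 differences of 1.65, 1.06 and 1.41. MMP15 and TIMP2 differed by less than 1.5-fold. MMP15 was higher in Pa-Tu-8902 by 0.43 ± 0.09 (SE, log2, edgeR adjusted p 0.000586), and TIMP2 was lower there by a log2 difference of -0.35 ± 0.08 (SE, edgeR adjusted p 0.00142). The median over the 7 tested members was -0.35, against -0.029 over all tested genes.

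Whether the dox response differed between the lines was asked of all 12 libraries with an interaction term, the Pa-Tu-8902 response minus the MIA PaCa-2 response. Of the 10 members 8 could be tested and 2 were called, where 10.4% of all tested genes were called. MMP28 differed by 4.41 ± 0.56 (SE, log2), a description because its rise chose the set. TIMP1, which was lower with dox in MIA PaCa-2 and overlapped between groups in Pa-Tu-8902, differed by 0.72 ± 0.13 (SE, log2, edgeR adjusted p 0.000419). MMP15 differed by 0.56 ± 0.11 (SE, log2, edgeR adjusted p 0.000762), which was just under the fold limit. It passed without untreated Pa-Tu-8902 replicate 3 (0.63), Pa-Tu-8902 dox replicate 1 (0.59), untreated MIA PaCa-2 replicate 2 (0.62) or MIA PaCa-2 dox replicate 1 (0.6).

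The responses of the remaining members were not separated between the lines. TIMP2 differed by 0.31 ± 0.11 (SE, log2, edgeR adjusted p 0.0452), MMP14 by -0.11 ± 0.15 (adjusted p 0.632) and MMP24 by 0.82 ± 0.52 (adjusted p 0.272). MMP1, lower with dox in both lines, differed by 0.68 ± 0.3 (SE, log2) and was not called. TIMP3 differed by 3.31 ± 2.27 (SE, log2) and was not called, with at most 1 count per library in MIA PaCa-2. It passed the filter of this fit through the Pa-Tu-8902 dox libraries alone, so its value is a description. A p that misses the threshold does not show that responses were alike.

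Around the 10 members, lists of related genes were followed to see which other parts of pericellular proteolysis moved. Their counts stand against 1379 genes called higher and 1064 lower of 14949 tested in Pa-Tu-8902, and 636 higher and 1115 lower of 14589 tested in MIA PaCa-2. Of 18 further metalloproteinase family genes (TIMP4 included), 3 reached the test in the Pa-Tu-8902 libraries and 5 in those of MIA PaCa-2. In Pa-Tu-8902 MMP11 (stromelysin-3) rose by 1.35 ± 0.15 (SE, log2), from 2.11 ± 0.333 to 5.34 ± 0.346 normalised CPM (SD, n = 3). MMP13 (collagenase-3) decreased by 1.27 on the log2 scale (SE 0.22), from 2.75 ± 0.601 to 1.13 ± 0.198 normalised CPM. MMP9 (gelatinase B) stood at 0.62 ± 0.3 (SE, log2) on few counts and was not called.

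In MIA PaCa-2 MMP17 (MT4-MMP) rose by 0.86 ± 0.14 (SE, log2), with 135 to 153 counts without dox and 187 to 305 with it, while all 6 Pa-Tu-8902 libraries held 0 counts of it. MMP10 (stromelysin-2), a neighbor of MMP1 in the chromosome 11 cluster, decreased by 0.95 on the log2 scale (SE 0.22), from 2.6 ± 0.402 to 1.34 ± 0.316 normalised CPM. MMP11 (-0.21 ± 0.11), MMP23B (0.02 ± 0.2) and MMP25 (-0.13 ± 0.38) were not called there. Of 7 genes of this list tested for a response that differed between the lines, 1 was called, where 10.4% of all tested genes were called. It was MMP11, at 1.56 ± 0.19 (SE, log2). This is a description, because the rise of MMP11 in Pa-Tu-8902 had already been seen.

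The plasminogen system generates plasmin, an activator of metalloproteinase precursors. In Pa-Tu-8902, 0 of its 9 tested genes were called higher and 3 were called lower, where 16.3% of all tested genes were called in either direction. In MIA PaCa-2, where 12% were called, 1 of 8 was higher and 0 lower, the urokinase receptor PLAUR, at 9.16 ± 0.843 and 16 ± 1.18 normalised CPM. The list had a median log2 fold change of -0.4 with dox in Pa-Tu-8902, and of 0.09 in the other line. Responses differed between the lines for 3 of 9 tested genes, where 10.4% of all tested genes were called. In all 3 the response, not the level, was the lower one in Pa-Tu-8902. PLAUR was among them at -1.21 ± 0.13 (SE, log2), a description because its rise in MIA PaCa-2 chose it.

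Among the related ADAM sheddases, 2 of 8 tested genes were higher and 3 lower in Pa-Tu-8902, and 1 of 6 was higher and 0 lower in MIA PaCa-2, beside 16.3% and 12% of all tested genes called. ADAM28 rose from 1.3 ± 0.192 to 14.4 ± 1.09 normalised CPM in Pa-Tu-8902 and had 0 counts in MIA PaCa-2. ADAM19 went in opposite directions, from 53.8 ± 2.03 to 16.9 ± 1.48 normalised CPM in Pa-Tu-8902 and from 1.27 ± 0.317 to 3.1 ± 0.224 in MIA PaCa-2. The interaction of -2.94 ± 0.18 (SE, log2) is a description, because the fall of ADAM19 in Pa-Tu-8902 chose it. Of the secreted ADAMTS proteases 7 could be tested in each line, with 2 higher and 0 lower in Pa-Tu-8902 and 1 higher and 1 lower in MIA PaCa-2, beside the same shares. ADAMTS15, an aggrecanase, rose in Pa-Tu-8902 from 6.16 ± 1.54 to 54 ± 1.92 normalised CPM.

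Of the genes that activate or clear the enzymes, 1 of 7 was called in each line, both higher, beside 16.3% (Pa-Tu-8902) and 12% (MIA PaCa-2) of all tested genes. In Pa-Tu-8902 this was LRP1, the endocytic receptor that removes metalloproteinases and their TIMP complexes, at 11.1 ± 0.999 without and 29.1 ± 4.39 normalised CPM with dox. In MIA PaCa-2 it was FURIN, the convertase that opens the precursors of MMP14 and MMP28, at 52.6 ± 7.11 and 79.4 ± 5.59 normalised CPM. Among genes of matrix and surface substrates, 4 of 16 tested were higher and 2 lower in Pa-Tu-8902, and 5 of 16 were higher and 0 lower in MIA PaCa-2, beside those same shares. Collagen genes led the rises, COL1A1 in Pa-Tu-8902 (12 ± 1.59 to 44 ± 0.288 normalised CPM) and, among genes of at least 100 mean counts, COL5A2 in MIA PaCa-2 (237 ± 17 to 614 ± 32.2 normalised CPM). LAMB3, a chain of laminin-332, fell in Pa-Tu-8902 from 419 ± 23 to 255 ± 13.5 normalised CPM. COL1A1 was also the fibroblast marker detected in Pa-Tu-8902. There the summed fibroblast markers stood at 3.82 to 6.38 TPM without dox and 18 to 21.7 TPM with it. Most of that sum was COL1A1 itself (means 4.5 and 19.6 TPM), while COL3A1, DCN and LUM were at or near 0. In MIA PaCa-2 the same sum stood at 192 to 248 TPM without dox and 340 to 398 TPM with it, nearly all COL1A2. Each sum thus repeats the collagen gene it contains and is no separate measure of fibroblasts. Whether other cells contributed to the collagen values was not tested.

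**Figure D5:**
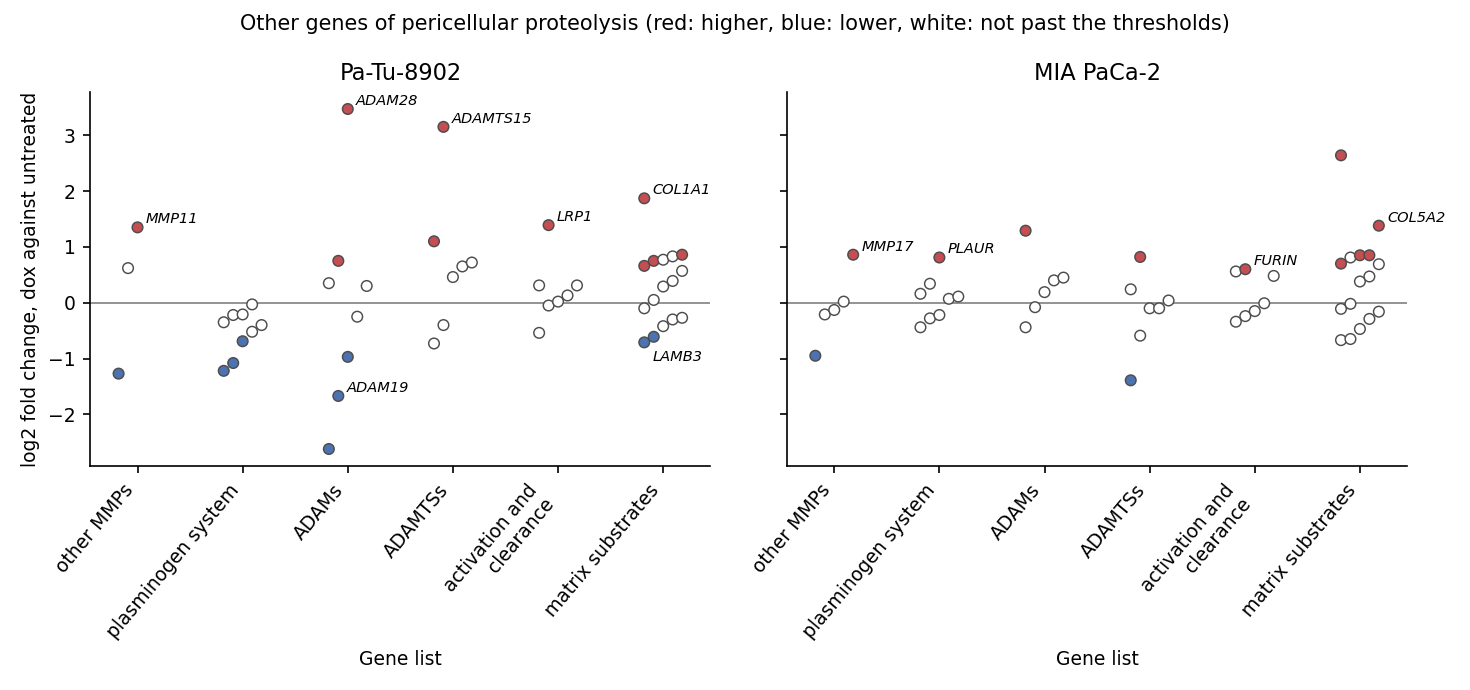
Log2 fold change of dox against untreated for every tested gene of the 6 related lists in Pa-Tu-8902 (left) and MIA PaCa-2 (right), with called genes in red (higher) or blue (lower) and the others white. Labels mark genes named in the text; in Pa-Tu-8902 no tested gene of the plasminogen system lies above 0.

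Genes with the pattern most like that of MMP1 and MMP28 were sought among 11662 genes by Pearson correlation of log2 CPM over the 12 libraries. For MMP1 they were TUBA1A (r = 0.9985), PCK2 (0.9984) and NMT2 (0.9977). All 3 resembled MMP1 in being higher in MIA PaCa-2 and lower with dox in each line, with PCK2 at 84 to 97.7 normalised CPM in untreated and 60.4 to 63.5 in dox MIA PaCa-2. For MMP28 they were XXYLT1 (0.9906), MEGF9 (0.9904) and IBTK (0.9878). MEGF9 measured 21.1 to 22.4 normalised CPM in untreated and 58.7 to 62 in dox Pa-Tu-8902, and 13 to 15.8 across the MIA PaCa-2 libraries. The 12 points share 2 lines and 2 treatments, so the coefficients are descriptions of a 4-group pattern and carry no test.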

How the data were processed

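PolyA RNA of 12 libraries (3 untreated and 3 dox each of Pa-Tu-8902 and MIA PaCa-2) was sequenced from a directional kit. Per the labels dox was given at 1 µM/mL for 5 days, a unit that differs from the one in the study's methods. The submitters' processing notes name bcl2fastq, Trimmomatic 0.39, STAR 2.5.2a and RSEM 1.3.1 on GRCh38. The authors deposited RSEM expected counts per gene, neither normalised nor filtered, of which 5.34% are not whole numbers. They also deposited TPM values per gene and transcript, RSEM effective lengths, and FPKM values that were not used here. Expected counts were rounded and scaled by TMM, and genes that reached 10 counts in 3 or more libraries of a fit went into edgeR's quasi-likelihood test (version 4.0.16, R 4.3.3, functions glmQLFit and glmQLFTest). Calls required both an adjusted p below 0.01 and a 1.5-fold difference. Standard errors were back-calculated from the log2 value and its F statistic. Each line was fitted alone, the baseline on the 6 untreated libraries and the interaction on all 12. Ratios of low summed counts carry exact 95% intervals for counting error only.

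The test was checked on simulated data. The alternatives tried were other count filters, DESeq2 1.42.0 in full or for scaling alone, effective lengths as offsets, 1 fit of 12 libraries, a replicate block, no fold limit and each library left out. Deviations of equal replicate numbers correlated between -0.061 and 0.099, which does not exclude a pairing, and the main fits used none. Groups came from the sample titles, and all libraries differed by more than sampling noise (chi-square per degree of freedom 2.25 to 27.3 between replicates). Positions, coding sequences and transcript classes are from GENCODE release 44 on GRCh38, matched by Ensembl identifier. The sites were found by searching the coding sequence of the canonical transcript of each gene, in frame, for the codons of the zinc-binding motif.

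The members and the lists of related genes were chosen with earlier results of these data known. Named were all members, GOT1, tested genes of the metalloproteinase list, in each other list the called gene with the greatest rise and fall per line among genes of at least 100 mean counts, and the 3 genes most correlated with MMP1 and with MMP28. A gene that this rule names is not reported here. Any gene named outside this rule was chosen after its values were seen.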

Additional observations from a re-analysis of the deposited data

Results flagged for a closer look

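By the interaction term over 12 libraries the dox response differed between the lines for 2 of the 8 members tested, where 10.4% of all tested genes were called, and 1 of the 2 is MMP28, whose values chose the set. For MMP28 the Pa-Tu-8902 response minus the MIA PaCa-2 response was 4.41 on the log2 scale, a description that rests on 2 to 8 counts per library in MIA PaCa-2. For TIMP1 the same difference was 0.72 on the log2 scale (edgeR adjusted p 0.000419), made up of a response of -0.61 in MIA PaCa-2 and one of 0.11, with overlapping groups, in Pa-Tu-8902. Groups of 3 libraries are too small for a search for single deviating libraries. In chi-square per degree of freedom, untreated MIA PaCa-2 replicate 2 differed most, at 27.3 from replicate 1 and 25.5 from replicate 3. Those replicates differed by 6.4 from each other. Without replicate 2 the TIMP1 response in MIA PaCa-2 was -0.56 and was not called.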

How the results depend on the processing

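Over 384 alternative values for single members, 367 kept their direction and their side of the thresholds, 9 came to pass them, 8 no longer passed them and 0 reversed. Alternatives under which a member was not tested are not among the 384, nor is the one with no fold limit, so lost calls of that kind are not counted. The number called in MIA PaCa-2 with dox was 2, 2 to 3 under the other alternatives, and 1 to 2 with single libraries left out, since TIMP1 fell short of the fold limit without untreated replicate 2 (-0.56). For Pa-Tu-8902 the number was 3, 2 to 4 under the other alternatives, and 2 to 3 with single libraries left out, since TIMP3 was not tested without any 1 dox library. The baseline count was 5, but 3 with at least 10 counts required in every library, which leaves MMP24 and MMP28 untested, 3 to 4 with single libraries left out, and 7 with no fold limit. MMP28 lost its baseline call under 7 of 9 alternatives, DESeq2 (1.43) among them; the cause was not tested. MMP1 in Pa-Tu-8902 came to pass with no count filter (-1.26) and in 1 fit of all 12 libraries (-1.25), and MMP15 passed the interaction with effective lengths (0.62). The interaction count was 2 to 3 throughout. With the replicate block the counts were 3 and 2 for dox in Pa-Tu-8902 and MIA PaCa-2, 4 at baseline and 2 for the interaction, and the MMP28 baseline call was the one lost; the numbers do not mark a known pairing. Depth limits MMP7, RECK, MMP24 in Pa-Tu-8902, and TIMP3 and MMP28 in MIA PaCa-2, all near or under the floor of 3 counts.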
